A study of Mus musculus with 9 samples.

Results

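Mmp14, Mmp2, their inhibitors Timp1, Timp2, Timp3 and Reck, and the sheddases Adam10 and Adam17 were read in the RNA of LSK cells, the Lin- Sca1+ cKit+ fraction of bone marrow, which includes the blood stem cells. The 8 genes were found by symbol among the 39179 gene rows of the count table, and 7 passed the filter on low counts. The family was chosen by the level of Mmp14, which was higher in mutant and Cre-negative than in wild-type libraries in earlier results of these data; the other 7 genes were added for their known roles. All values of Mmp14 are therefore a description and carry no test.

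The mice were C57BL/6, aged 6 months, and all groups carry the same treatment label, poly(I:C) given 5 times into the peritoneum to raise interferon and so switch on the Mx1-Cre recombinase. Mx1-Cre acts in many interferon-responsive cells and is not restricted to LSK cells. Wild-type mice carrying Mx1-Cre (wt_Mx+, Dnmt3a+/+) gave 3 libraries, mice with Mx1-Cre and the conditional mutant Dnmt3a allele (cKI_Mx+, Dnmt3a+/m) gave 4, and mice with the conditional allele but no Cre (cKI_Cre-, given as Dnmt3a+/- in the design text) gave 2. The Cre-negative group thus differs from wild type in the allele and in Cre at once, and the effects of these cannot be told apart. The labels do not say whether each library is 1 animal, so p-values measure the spread between these libraries, which may in part be technical. Libraries are called by their titles, and values listed by group are in the order wt_Mx_pos_820, wt_Mx_pos_823 and wt_Mx_pos_825 for wild type, cKI_Mx_pos_824, cKI_Mx_pos_827, cKI_Mx_pos_829 and cKI_Mx_pos_830 for mutant, and cKI_Cre_neg_780 and cKI_Cre_neg_819 for Cre-negative.

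MT1-MMP, the product of Mmp14, is a collagenase held in the cell membrane. It cuts matrix and surface proteins and activates the secreted gelatinase encoded by Mmp2, with Timp2 serving as an adaptor at low levels and as an inhibitor at high levels. Reck is a membrane-anchored inhibitor of MT1-MMP, and the balance between the pair is known for its part in the egress of progenitors from bone marrow. The sheddases ADAM10 and ADAM17 release the outer parts of surface proteins, among them Notch receptors, the Kit receptor and tumour necrosis factor, and Timp3 is the main tissue inhibitor of ADAM17.

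RefSeq promoter windows of GRCm38.p6, which run from upstream of the start site to just past it, were available for 7 of the 8 genes. Those of Mmp14, whose level set the family apart, and of Timp2 and Adam10, whose mutant and wild-type libraries did not overlap, are shown 5′ to 3′ on the strand of the gene, with the GC box GGGCGG on either strand in capitals. They lie at chr14:54431348-54431647 (plus strand), chr11:118355362-118355661 (minus strand) and chr9:70678732-70679031 (plus strand).
Mmp14: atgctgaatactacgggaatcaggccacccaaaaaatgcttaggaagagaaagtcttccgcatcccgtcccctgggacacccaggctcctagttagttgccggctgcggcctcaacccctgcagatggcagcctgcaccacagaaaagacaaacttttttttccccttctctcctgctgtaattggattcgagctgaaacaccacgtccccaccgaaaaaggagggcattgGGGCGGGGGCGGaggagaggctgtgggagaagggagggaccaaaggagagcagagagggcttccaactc
Timp2: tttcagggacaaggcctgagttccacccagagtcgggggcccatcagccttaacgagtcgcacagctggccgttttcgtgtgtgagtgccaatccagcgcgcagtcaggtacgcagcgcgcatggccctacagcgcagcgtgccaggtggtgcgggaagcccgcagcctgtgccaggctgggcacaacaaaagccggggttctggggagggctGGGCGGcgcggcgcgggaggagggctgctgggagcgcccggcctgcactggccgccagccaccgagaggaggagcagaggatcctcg
Adam10: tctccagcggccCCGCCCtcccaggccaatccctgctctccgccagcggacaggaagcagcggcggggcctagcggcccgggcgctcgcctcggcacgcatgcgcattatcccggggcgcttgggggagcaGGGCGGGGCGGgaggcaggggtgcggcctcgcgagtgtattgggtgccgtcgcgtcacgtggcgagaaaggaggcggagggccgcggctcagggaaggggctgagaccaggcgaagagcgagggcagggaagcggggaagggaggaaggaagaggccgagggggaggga

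The Mmp14 window held 2 adjoining GC boxes, which begin at -19 and -13 from the start site. Timp2 had 1 at -37. Adam10 had 2 that share a base, at -119 and -114, and 1 on the other strand at -238. A GC box was present in 35.7% of the 32851 promoter windows. The TATA box TATAAA (13.6% of windows) and the AP-1 site TGACTCA (5.2%) were searched on both strands and matched in none of the 7 windows. Mmp14 had 10 CpG sites in its window and Timp1 had 8, close to the median of 7 over all windows, whereas Timp2 had 25 and Adam10 had 32. Reck, Timp3 and Adam17 had 23, 24 and 30 CpG sites. Their methylation was not analysed here. On GRCm38 the other protein-coding genes of the family lie on chromosome 8 (Mmp2, 92827291 to 92853420, plus strand), X (Timp1, 20870166 to 20874735, plus), 11 (Timp2, 118301069 to 118355740, minus), 10 (Timp3, 86300372 to 86349506, plus), 4 (Reck, 43875530 to 43944806, plus), 9 (Adam10, 70678997 to 70780229, plus) and 12 (Adam17, 21323509 to 21373632, minus).

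Counts assigned to genes ranged from 47792306 to 58405879 per library. The targeted gene Dnmt3a, a DNA methyltransferase, stood at 118 and 93.5 CPM (counts per 1000000 gene counts, with library sizes scaled by TMM) in the Cre-negative libraries, below the 148 to 173 CPM of the other 7 (adjusted p = 0.594 in edgeR against wild type). LSK markers were present in every library, with Kit at 369 to 539 CPM and Cd34 at 904 to 1500 CPM. Both Cre-negative libraries stood apart from the rest and from each other. Of all 18576 genes tested, cKI_Cre_neg_819 was the highest or the lowest of the 9 libraries for 43.1% and cKI_Cre_neg_780 for 40.4%, and the other 7 libraries each for 8.95% to 26.1%. Among the 7 members that passed the filter, cKI_Cre_neg_819 was the highest or the lowest for 6 and cKI_Cre_neg_780 for 1. The 6 include Mmp14, which was chosen by its level, so nothing is read from its place. Beside it, cKI_Cre_neg_819 was the highest for Timp3, Adam10 and Adam17 and the lowest for Timp2 and Reck. In cKI_Cre_neg_819, 12 erythroid markers summed to 3962 CPM, beside 851 to 1124 CPM in the other 8 libraries, and 9 mast cell and basophil markers to 255.5 CPM, beside 63.5 to 120.8 CPM. In bulk RNA, a change in the share of cells of a type and a change in RNA per cell cannot be told apart.

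The levels of the 8 genes spanned several orders of magnitude when divided by the length of their merged exons. Adam10 was the highest, at 51.6 ± 6.28 CPM per kb (SD, n = 9), above 95.5% of the 18303 tested genes with an annotated exon length. Adam17 followed at 17.9 ± 2.94 CPM per kb and Timp2 at 6.47 ± 1.03 CPM per kb (SD, n = 9). Each of these 3 was above the next gene in the order in 9 of 9 libraries. Mmp2, at 3.49 ± 0.887 CPM per kb, and Mmp14, at 3.34 ± 1.48 CPM per kb (SD, n = 9), did not separate, and Mmp2 was the higher of the pair in 6 of 9 libraries. Reck stood at 1.58 ± 0.234 CPM per kb and Timp3 at 0.856 ± 0.341 CPM per kb (SD, n = 9), with Reck above Timp3 in 8 of 9.

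**Figure D1:**
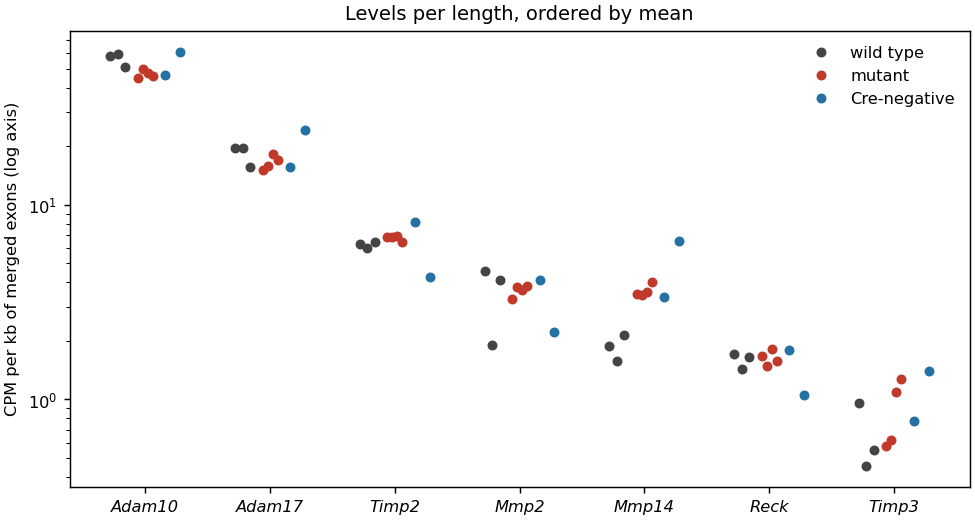
CPM per kb of merged exons (log axis) of the 7 members that passed the filter, 1 point per library, coloured by group and ordered by the mean. Adam10 lies near 51.6 and Timp3 near 0.856 CPM per kb, and Mmp2 and Mmp14 overlap.

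Timp1, the secreted inhibitor that also binds the precursor of MMP9, was almost undetected. It had 2 reads in wt_Mx_pos_820, 3 in cKI_Mx_pos_827, 1 in cKI_Mx_pos_830 and 0 in the other 6 libraries. A count of 0 allows up to 3 reads, which is 0.053 to 0.0632 CPM in these libraries and covers counting error only. No difference between genotypes was detectable at this level, and Timp1 entered no test. The gene lies within Syn1 on the opposite strand, and their exons do not overlap.

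Mmp14 (ENSMUSG00000000957, chromosome 14, 54431612 to 54445364 of GRCm38, plus strand, protein-coding) stood at 11.2, 9.41 and 12.8 CPM in the 3 wild-type libraries. The 4 mutant libraries had 20.7, 20.4, 21.2 and 23.9 CPM. The 2 Cre-negative libraries had 20.2 and 39.1 CPM. Every library with the conditional allele was thus above every wild-type library, the mutant libraries lay close together, and cKI_Cre_neg_819 was nearly double cKI_Cre_neg_780, which sat just below the mutant range.

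The group means were 11.2 ± 1.7 CPM for wild type (SD, n = 3), 21.6 ± 1.59 CPM for mutant (SD, n = 4) and 29.6 ± 13.4 CPM for Cre-negative (SD, n = 2). The fitted log2 fold change against wild type was 0.95 (SE 0.21) in the mutant, a fold of 1.93, and 1.41 (SE 0.24) in Cre-negative libraries, a fold of 2.66. Both contrasts share the wild-type libraries. Among all genes tested, 4.17% had every mutant library above every wild-type library and 6.25% every Cre-negative library above every wild-type library; since Mmp14 was chosen by its level, nothing is read from its place among them. The mutant-minus-Cre-negative log2 difference was -0.46 (SE 0.23). It became 0.13 without cKI_Cre_neg_819, and the Cre-negative difference from wild type then became 0.84, resting on 1 library. Without cKI_Cre_neg_780 these values were -0.81 and 1.78.

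**Figure D2:**
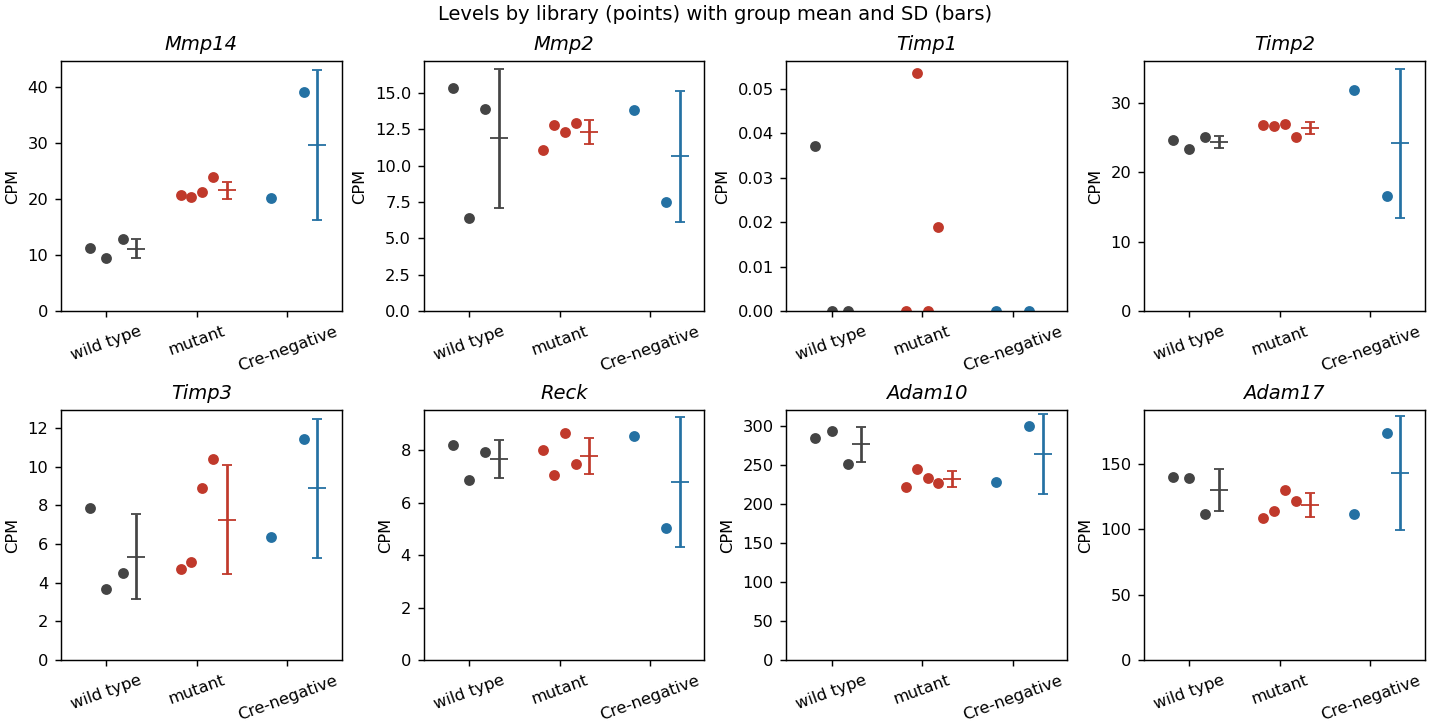
CPM of the 8 genes by library (points) with group means and SDs (bars, none for Timp1), for 3 wild-type, 4 mutant and 2 Cre-negative libraries. The highest wild-type value of Mmp14, 12.8 CPM, lies below the lowest value with the conditional allele, 20.2 CPM.

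Markers of other cells that could carry Mmp14 were read in the same libraries. The 15 monocyte and macrophage markers summed to 334 to 426 CPM in wild type, 339 to 423 in mutant and 406 to 408 in Cre-negative libraries, a sum in which Lyz2 alone had 179 to 244 CPM. Over these 15 genes the median log2 fold change against wild type was 0.37 in the mutant, with 8 positive, and 0.64 in Cre-negative libraries, with 12 positive, beside -0.02 and 0.017 over all genes. None of them was called. The 16 stromal and endothelial markers summed to 113 to 133, 97.5 to 139 and 90.4 to 125 CPM in the same order. Most of that sum came from Pdgfrb (51.4 to 94.4 CPM) and Emcn (16.3 to 33.3 CPM), and Col1a2 had 1.24 to 17.8 CPM. Of the other matrix genes listed, Postn had 1.03 to 8.89 CPM and Col1a1 0.053 to 2.1 CPM, while Col3a1, Dcn, Lum, Bglap and Sparcl1 did not exceed 0.124 CPM and had 0 reads in 4, 6, 8, 3 and 8 of 9 libraries. The Pearson r with Mmp14 over the 9 libraries was 0.68 for Col1a2, -0.49 for Pdgfrb, -0.46 for Emcn and -0.43 for Postn, as a description. The 10 neutrophil markers, which include the secreted proteases Mmp8 and Mmp9, summed to 60.3 to 170 CPM in wild type, 138 to 425 in mutant, and 333 and 48.3 in the 2 Cre-negative libraries. Their median log2 fold change against wild type was 1.49 in the mutant, with 9 positive, and 1.2 in Cre-negative libraries, with 10 positive. The 8 B cell markers summed to 35.2 to 49.1, 46.7 to 65.0 and 37.0 to 63.0 CPM in wild-type, mutant and Cre-negative libraries. Cd79b alone had 27.6 to 40.6 CPM of this. All 8 were positive against wild type in both groups, with medians of 0.95 in the mutant and 0.73 in Cre-negative libraries. In that order the medians were 0.21 and 0.33 for megakaryocyte, -0.1 and 1.35 for erythroid, and -0.25 and 0.5 for mast cell and basophil markers. They were -0.01 and -0.25 for stromal and endothelial, and 0.35 and 0.41 for T and NK cell markers. None of these markers was called in edgeR. The part of the neutrophil, macrophage, stromal, B cell, T and NK cell, megakaryocyte, mast cell and erythroid RNA in the level of Mmp14 was not tested.

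Mmp2, the gelatinase that MT1-MMP activates, varied within the genotypes and overlapped between all 3. It stood at 15.3, 6.40 and 13.9 CPM in the 3 wild-type libraries, at 11.1, 12.8, 12.3 and 12.9 CPM in the 4 mutant libraries, and at 13.8 and 7.46 CPM in the Cre-negative pair. The low libraries were wt_Mx_pos_823 and cKI_Cre_neg_819. The log2 fold change was 0.05 (SE 0.29, 95% interval -0.60 to 0.69) in the mutant and -0.16 (SE 0.35, -0.93 to 0.61) in Cre-negative libraries against wild type, and the adjusted p was 0.998 and 0.9998 in edgeR's quasi-likelihood test. Adjusted p-values are Benjamini-Hochberg values over all 18576 genes tested, with calls made under 0.05.

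Timp2, the adaptor and inhibitor, had 24.7, 23.4 and 25.1 CPM in the 3 wild-type libraries, and 26.8, 26.7, 26.9 and 25.1 CPM in the 4 mutant libraries. The mutant libraries were all above wild type, although cKI_Mx_pos_830 and wt_Mx_pos_825 are equal as rounded. The log2 fold change was 0.11 (SE 0.18, 95% interval -0.29 to 0.52, adjusted p = 0.998 in edgeR). The 2 Cre-negative libraries held 31.8 and 16.6 CPM, the highest and the lowest values of all 9. Their mean hid this gap: the log2 difference from wild type was -0.01 (SE 0.22) with both, 0.37 without cKI_Cre_neg_819 and -0.59 without cKI_Cre_neg_780. A fit without either of them leaves 1 Cre-negative library, which is assumed to vary as the other groups do, so only the effect size is given. The mutant-minus-Cre-negative difference of 0.13 (SE 0.21, adjusted p = 0.966 in edgeR) became 0.72 without cKI_Cre_neg_780 and -0.24 without cKI_Cre_neg_819.

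Reck, the membrane-anchored inhibitor, had 8.21, 6.86 and 7.93 CPM in the 3 wild-type libraries and 7.99, 7.06, 8.65 and 7.48 CPM in the 4 mutant libraries. The 2 Cre-negative libraries had 8.55 and 5.04 CPM. Wild type and mutant overlapped, and cKI_Cre_neg_819 was below all others. The log2 fold change was 0.02 (SE 0.19, 95% interval -0.40 to 0.45, adjusted p = 0.998 in edgeR) in the mutant and -0.18 (SE 0.23, -0.69 to 0.34, adjusted p = 0.9998 in edgeR) in Cre-negative libraries against wild type.

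RNA of the inhibitors Timp2 and Reck was lower relative to Mmp14 RNA in every library with the conditional allele than in every wild-type library. Per kb, Timp2 stood at 3.38 ± 0.406 times Mmp14 in wild type (SD, n = 3) and 1.88 ± 0.183 times in mutant libraries (SD, n = 4), and at 2.41 and 0.65 times in the 2 Cre-negative libraries. Reck stood at 0.864 ± 0.08 times Mmp14 in wild type (SD, n = 3), 0.453 ± 0.0521 in the mutant (SD, n = 4), and 0.529 and 0.161 in the 2 Cre-negative libraries. In cKI_Cre_neg_819 alone, Mmp14 RNA exceeded Timp2 RNA per kb. These ratios inherit the choice of Mmp14 and are a description.

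**Figure D3:**
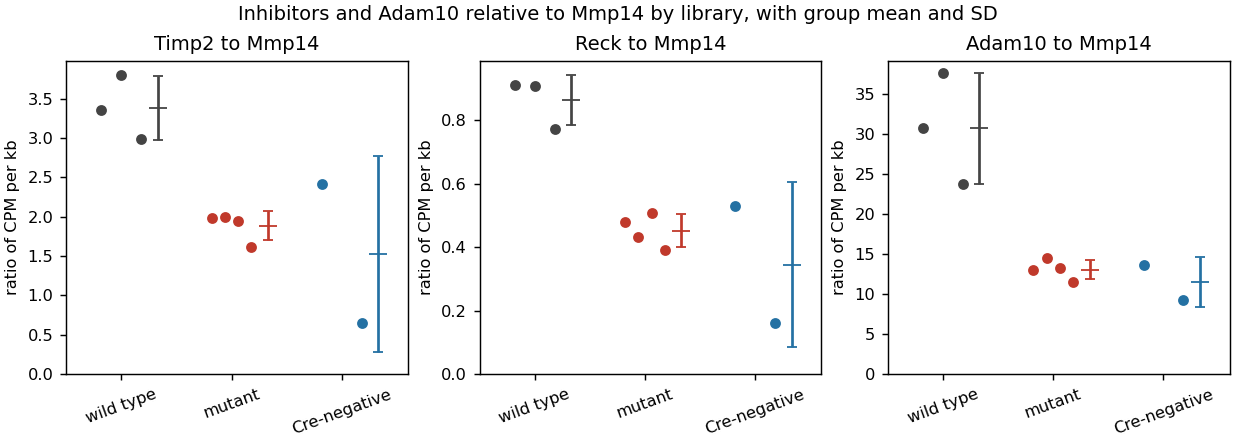
Ratios of CPM per kb of Timp2, Reck and Adam10 to Mmp14 by library (points) with group means and SDs (bars). Timp2 to Mmp14 lies at 2.99 to 3.8 in wild type and at 0.65 to 2.41 in the libraries with the conditional allele.

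Adam10, the sheddase that cuts Notch receptors, had 285, 293 and 251 CPM in the 3 wild-type libraries. The 4 mutant libraries had 221, 245, 233 and 227 CPM, all below wild type, with cKI_Mx_pos_827 and wt_Mx_pos_825 close to each other. The 2 Cre-negative libraries had 228 and 300 CPM, 1 within the mutant range and 1 above all others. The log2 fold change was -0.26 in the mutant against wild type (SE 0.11, 95% interval -0.50 to -0.0089), with an unadjusted p of 0.0436 in edgeR's quasi-likelihood test and an adjusted p of 0.998. Against Cre-negative libraries it was -0.19 (SE 0.13, adjusted p = 0.948 in edgeR), and 0.05 without cKI_Cre_neg_819.

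Adam17, the sheddase of tumour necrosis factor, had 140, 139 and 112 CPM in the 3 wild-type libraries, 109, 114, 130 and 122 CPM in the 4 mutant libraries, and 112 and 174 CPM in the Cre-negative pair. The groups overlapped, and only cKI_Cre_neg_819 stood above the wild-type range. The log2 fold change against wild type was -0.13 (SE 0.15, adjusted p = 0.998 in edgeR) in the mutant and 0.14 (SE 0.18, adjusted p = 0.9998 in edgeR) in Cre-negative libraries. Per kb, Adam10 stood at 2.51 to 3.27 times Adam17 over the 9 libraries. Adam17 shares 311 exon bases with Iah1 on the opposite strand, which stood at 18.5 to 23.0 CPM; whether reads were counted by strand is not given in the sources used here. The other annotated genes within members were Cep295nl in Timp2 and Gm27265 in Reck on the same strand and Gm22766 in Adam17 on the opposite one, none with shared exon bases.

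Timp3, the matrix-bound inhibitor of ADAM17, had a coefficient of variation of 41.4% in wild type and 38.8% in the mutant; that of Mmp2 was 40.3% and 6.75%. Timp3 had 7.86, 3.69 and 4.49 CPM in the 3 wild-type libraries, 4.69, 5.06, 8.90 and 10.4 CPM in the 4 mutant libraries, and 6.34 and 11.4 CPM in the Cre-negative pair. Each group had high and low libraries, and the groups overlapped. The log2 fold change was 0.44 (SE 0.36, 95% interval -0.37 to 1.25, adjusted p = 0.998 in edgeR) in the mutant and 0.73 (SE 0.43, -0.22 to 1.67, adjusted p = 0.9998 in edgeR) in Cre-negative libraries against wild type. These values turned on single libraries: the mutant value was 0.85 without wt_Mx_pos_820, 0.24 without wt_Mx_pos_823 and 0.23 without cKI_Mx_pos_830, and the Cre-negative value was 1.10 without wt_Mx_pos_820 and 0.23 without cKI_Cre_neg_819.

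The spread of Timp3 went with the presence of Y-linked transcripts, which 5 of the 9 libraries held and which each group had in both states. The 4 libraries without them (wt_Mx_pos_820, cKI_Mx_pos_829 and cKI_Mx_pos_830, cKI_Cre_neg_819) stood at 7.86 to 11.4 CPM and the 5 with them at 3.69 to 6.34 CPM, so the sets did not overlap; 3.06% of genes tested had every library without Y-linked transcripts above every library with them. In the edgeR fit with genotype and this term, Timp3 was higher without Y-linked transcripts by 0.94 on the log2 scale (SE 0.12), and it passed with an adjusted p of 0.0261 over all genes, as did 0.307% of genes. This result was singled out after its values were seen. The estimate lay between 0.89 and 0.98 with each library left out in turn, but the adjusted p passed the threshold of 0.05 in 2 of these 9 fits, the one without cKI_Cre_neg_780 and the one without cKI_Cre_neg_819. Without any 1 of the 7 wild-type and mutant libraries the adjusted p in edgeR was 0.062 to 0.144. With this term in the fit, the log2 fold change of Timp3 against wild type was 0.27 in the mutant (adjusted p = 0.774 in edgeR) and 0.58 in Cre-negative libraries (adjusted p = 0.565 in edgeR). None of the 5 members tested beside Timp3 passed for this term; Adam17 had the next lowest adjusted p, 0.197 in edgeR.

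Of the marker sums, those of LSK cells and of T and NK cells did not overlap between the same sets of libraries. The 9 LSK markers summed to 2209 to 2921 CPM without Y-linked transcripts and 3035 to 3223 CPM with them, and the 8 T and NK cell markers to 78.0 to 90.3 and 101 to 116 CPM. Most of the T and NK cell sum was Nkg7, at 71.1 to 109 CPM over all libraries, while Cd3e, Cd3d and Cd3g did not exceed 0.456 CPM. The sums of all other lists overlapped. The stromal sums were 90.4 to 127 and 125 to 139 CPM, the megakaryocyte sums 361 to 452 and 311 to 391 CPM. The monocyte and macrophage sums were 404 to 426 and 334 to 420 CPM. The part of these cells in the Timp3 difference was not tested. Timp3 shares 1733 exon bases with Syn3 on the opposite strand. Syn3 stood at 2.97 to 5.25 CPM in the libraries without Y-linked transcripts and at 2.2 to 3.82 CPM in those with them. If strand was not used, reads of the 2 genes cannot be told apart over the shared bases.

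**Figure D4:**
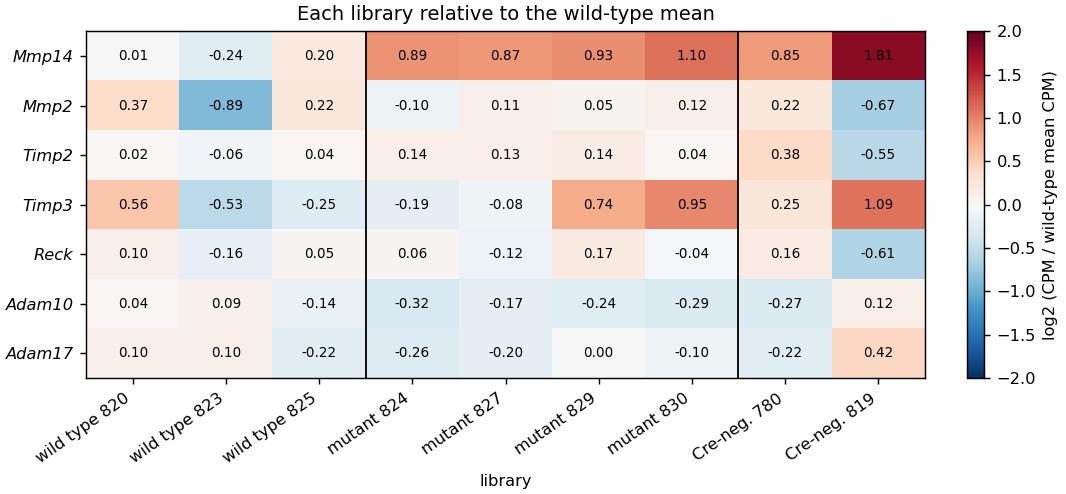
Log2 of the CPM of each library over the wild-type mean CPM for the 7 members that passed the filter, with libraries in columns and the groups divided by lines. Mmp14 is positive in all 6 libraries with the conditional allele (0.85 to 1.81), Adam10 is negative in the 4 mutant libraries, and cKI_Cre_neg_819 is low in Timp2 (-0.55) and Reck (-0.61) and high in Timp3 (1.09).

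Counted over the 6 members tested beside Mmp14, edgeR called 0 in each of the 3 comparisons, where 0% of all 18576 genes were called. At an unadjusted p under 0.05 it held 1 member, Adam10, between mutant and wild type (3.17% of all genes) and 0 in the contrasts of Cre-negative with wild type (5.23%) and of mutant with Cre-negative (5.26%). DESeq2 called 0 of the 6 in each comparison, against 0.194%, 0.376% and 0.113% of all genes in that order, and limma-voom with sample quality weights 0, against 0.07%, 0% and 0%. The groups did not overlap for 2 of the 6 members between mutant and wild type, Timp2 and Adam10, in opposite directions (8.32% of all genes), and for 0 in the other comparisons (11.4% and 12.4%). The median log2 fold change of the 6 was 0.035, -0.038 and -0.033, beside -0.02, 0.017 and -0.032 over all genes tested. The 95% intervals of the mutant over wild-type fold ran from 0.662 to 1.61 for Mmp2 and from 0.775 to 2.37 for Timp3.

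**Figure D5:**
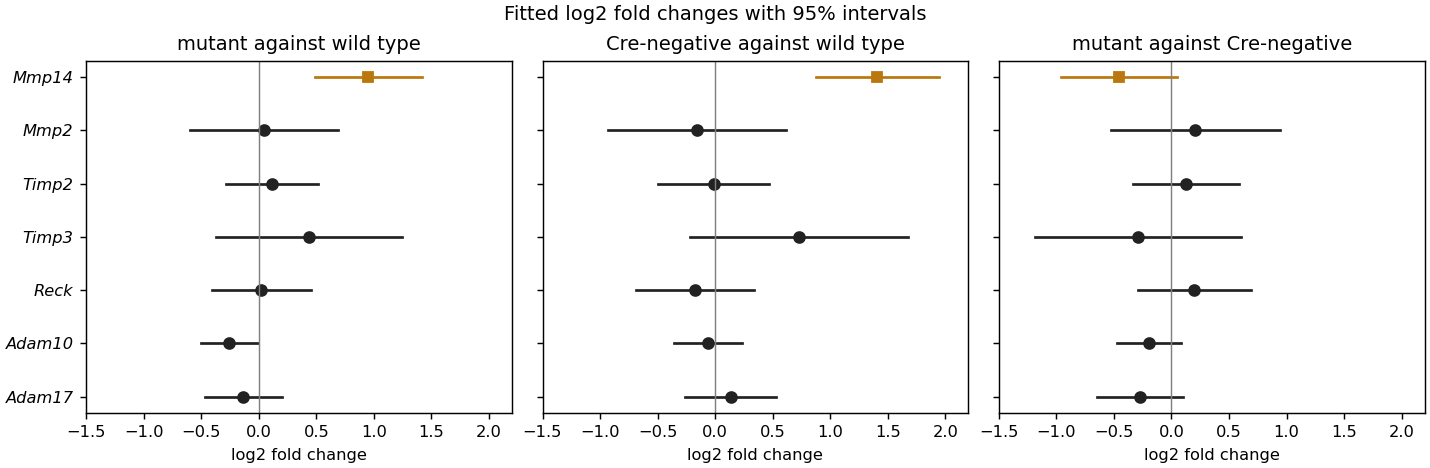
Fitted log2 fold changes (points) with 95% intervals (lines) of the 7 members in the 3 comparisons; Mmp14 (square) is shown as a description. In the mutant against wild type Mmp14 lies at 0.95 and Adam10 at -0.26, and the intervals of the other 5 members include 0. The intervals are not adjusted for the number of genes. That of Adam10 ends at -0.0089, and Adam10 was not called (adjusted p = 0.998 in edgeR).

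Genes around the family were taken from 7 lists of 81 genes, of which 66 passed the filter. In edgeR 0 of the 66 were called in any comparison. An unadjusted p under 0.05 was held by 4 in mutant against wild type (6.06%, beside 3.17% of all genes), 6 in Cre-negative against wild type (9.09%, beside 5.23%) and 3 in mutant against Cre-negative (4.55%, beside 5.26%). DESeq2 called 1, the amyloid precursor relative Aplp2 in Cre-negative against wild type (0.376% of all genes called), and limma-voom with quality weights 1, the adhesion receptor gene Vcam1 in mutant against wild type (0.07% of all genes called). Of the 66, 72.7% had a positive value in the mutant against wild type, where 45.7% of all genes did, and 69.7% in Cre-negative libraries against wild type, where 53.2% did; both share the wild-type libraries. In mutant against Cre-negative the share was 50.0%, beside 44.2% of all genes.

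Among the membrane-type relatives of Mmp14, all 5 were measured, with a median log2 fold change of 0.21 in the mutant and 0.23 in Cre-negative libraries against wild type. Mmp15, the highest of them per kb, stood at 2.65 ± 0.413 CPM in wild type (SD, n = 3) and 4.32 ± 0.511 in the mutant (SD, n = 4). The difference was 0.70 on the log2 scale (SE 0.33, adjusted p = 0.998 in edgeR). The 2 Cre-negative libraries had 7.62 and 2.49 CPM of Mmp15, the reverse of their order for Mmp14. Mmp17 followed at 2.39, 2.77 and 2.92 CPM in wild-type, mutant and Cre-negative means, and Mmp24 at 0.963, 0.773 and 0.479 CPM. Of 14 secreted relatives 8 were measured, and Mmp11 (4.73, 4.88 and 4.58 CPM in wild type, mutant and Cre-negative means), Mmp28 (4.58, 5.14 and 5.88 CPM) and Mmp8 (0.970, 2.98 and 2.71 CPM) were the highest per kb. Mmp8 encodes the neutrophil collagenase and belongs to the neutrophil markers described above. Of 5 further protease inhibitors, Serpine2 and Tfpi2 were measured, and Tfpi2, a matrix-associated serine protease inhibitor, was at 0.497, 0.648 and 0.703 CPM in the 3 means.

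The proprotein convertases had a median of 0.12 in the mutant and 0.07 in Cre-negative libraries against wild type, over 5 measured genes of 7. Some members of this family cut the propeptides of MT1-MMP and the ADAMs. Furin averaged 32.3 ± 4.80 CPM in wild type (SD, n = 3) and 37.9 ± 2.01 in the mutant (SD, n = 4), with 47.3 and 29.3 CPM in the Cre-negative pair. Pcsk7 was the highest convertase per kb (41.2, 41.6 and 43.1 CPM in the 3 means), and Pcsk4 had 3.11, 3.39 and 2.61 CPM. Of the partners that carry the sheddases through the cell, 8 of 9 were measured, with medians of 0.11 and 0.04. Tspan14, a tetraspanin of ADAM10, stood per kb at 66.9 CPM on average, above Adam10 itself, and Frmd8, a partner of the ADAM17 complex, at 18.1 CPM per kb, close to Adam17. Tspan14 averaged 177 ± 4.47 CPM in wild type (SD, n = 3) and 185 ± 14.3 in the mutant (SD, n = 4), and the 2 Cre-negative libraries had 196 and 130 CPM. Tspan5, another tetraspanin of ADAM10, had 31.2, 30.7 and 28.7 CPM in the 3 means.

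The other ADAM proteases had medians of -0.12 and -0.15 over 5 measured genes of 7, with Adam9 at 41.1, 37.9 and 37.2 CPM in wild type, mutant and Cre-negative means, Adam15 at 23.5, 25.5 and 21.2 CPM and Adam8 at 2.57, 2.26 and 2.2 CPM. Shed surface proteins had medians of 0.15 and 0.24 over 33 measured genes of 34. Among their highest members per kb were Spn, the sialomucin CD43 (896, 968 and 927 CPM in the same order), and Kit, the stem cell factor receptor (462, 440 and 455 CPM). Neither was called, and their log2 fold changes lay between -0.07 and 0.11 against wild type.

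The genes whose log2 CPM was most like that of Mmp14 over the 9 libraries, among 11657 autosomal genes ranked, were Tfr2, a transferrin receptor (Pearson r = 0.939), Crat, carnitine acetyltransferase (0.931), Serpine2, an inhibitor of serine proteases (0.928), Cttn, the actin-binding protein cortactin (0.924), and Tubb2a, a beta-tubulin (0.923). These points share 3 groups and the library cKI_Cre_neg_819, where Mmp14 was highest. With the group means removed, the same r was 0.871, 0.673, 0.822, 0.812 and 0.892. Most of the spread of Mmp14 that then remains is the gap between the 2 Cre-negative libraries, at 20.2 and 39.1 CPM. Serpine2 was also on the list of further protease inhibitors. It had 10.5, 6.95 and 9.46 CPM in the 3 wild-type libraries, 11, 13.6, 11.5 and 14.6 CPM in the 4 mutant libraries, and 12.9 and 20.2 CPM in the Cre-negative pair, so every library with the conditional allele was above wild type. Since it was picked here for its likeness to Mmp14, nothing is read from that order. Its log2 fold change was 0.50 (SE 0.20, adjusted p = 0.998 in edgeR) in the mutant and 0.88 (SE 0.24, adjusted p = 0.787 in edgeR) in Cre-negative libraries. Among the members, Pearson r with Mmp14 ran from 0.67 for Timp3 to -0.47 for Reck. With the group means removed, it was 0.59 for Timp3 and Adam17, 0.51 for Adam10, -0.17 for Mmp2, -0.68 for Reck and -0.85 for Timp2. These values again rest largely on the gap between the 2 Cre-negative libraries and do not show a relation within each genotype.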

How the data were processed

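Total RNA of sorted LSK cells was sequenced from stranded, ribosome-depleted libraries, per the labels' protocols. STAR, HTSeq 0.5.3p3 and DESeq2 are named with mm10 (GRCm38), per the submitters' processing notes; the gene annotation and whether strand was used are not given in these sources. The authors deposited raw counts per Ensembl gene. The 5 rows that name no gene (40.5% to 47.3% of all counts in a library) were left out. The row for alignments that were not unique held 21.6% to 28.3% of all counts. A second deposited table was not used. Symbols, coordinates and exon lengths came from GENCODE M21 (GRCm38), matching 37693 identifiers.

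Counts were filtered with filterByExpr by group (18576 genes), TMM-scaled and tested with the quasi-likelihood test of edgeR 4.0.16 over all 9 libraries, with Benjamini-Hochberg adjustment at 0.05 over all genes, two-sided. CPM use TMM-scaled library sizes. Standard errors are the log2 fold change over the square root of F. DESeq2 1.42.0, limma 3.58.1 and R 4.3.3 served the alternatives. Counts simulated with known changes were used to test the fit.

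The members and lists were chosen with earlier results of these data known. All 8 members are named; in each list the up to 3 genes highest per kb are named (1 such gene is not reported here), plus genes called and, for likeness to Mmp14, the 5 with the highest Pearson r among genes of at least 1 CPM, not on X or Y and with no clone name. Libraries held Y-linked transcripts where Ddx3y, Uty, Kdm5d and Eif2s3y together passed 1 CPM. Library numbers come from the sample titles and pair no libraries.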

Additional observations from a re-analysis of the deposited data

Results flagged for a closer look

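Among the 4 mutant libraries, the 8 genes were each examined for a library far from the other 3. Timp2 stood at 25.1 CPM in cKI_Mx_pos_830 while the other 3 lay between 26.7 and 26.9 CPM, so that the gap took up 0.885 of the whole range (critical value 0.829). Chance flags about 1 in 20 such groups, and the gap is small beside the level of the gene.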

How the results depend on the processing

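Each comparison was recomputed under 15 alternatives: RLE scaling, no filter, DESeq2, limma-voom with quality weights, only the groups compared, a term for Y-linked transcripts, and each of the 9 libraries left out. No paired analysis was possible because the library numbers differ between groups. Of 315 recomputed values of the 7 members, 290 kept their direction and their side of the threshold, or for Mmp14 moved by less than the spread between libraries.

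The number of genes called moved from 0 to 36, 59 and 21 in DESeq2 for mutant against wild type, Cre-negative against wild type and mutant against Cre-negative, and to 13 in limma-voom for the first. With a library left out it ranged from 0 to 650 for Cre-negative against wild type and from 0 to 1835 for mutant against Cre-negative, and stayed 0 for mutant against wild type; the highest values came without cKI_Cre_neg_780 and were 62 and 9 without cKI_Cre_neg_819. The cause was not tested. Timp1 did not pass the filter and was not recomputed.

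For Mmp14 the mutant value against wild type lay between 0.85 and 1.08 with a library left out, the Cre-negative value between 0.84 and 1.78, and the mutant-minus-Cre-negative value between -0.81 and 0.13. Directions turned in limma-voom for values near 0: Adam10 in Cre-negative against wild type (0.010), and Reck (-0.0015), Mmp2 (-0.0091) and Adam17 (0.032) in mutant against wild type. With a library left out, the ranges that crossed 0 were, for Cre-negative against wild type, Timp2 -0.59 to 0.37, Reck -0.64 to 0.14, Mmp2 -0.70 to 0.20, Adam17 -0.23 to 0.39 and Adam10 -0.29 to 0.089. For mutant against Cre-negative they were Timp2 -0.24 to 0.72, Timp3 -0.60 to 0.23, Reck -0.10 to 0.68, Mmp2 -0.14 to 0.77, Adam17 -0.51 to 0.11 and Adam10 -0.33 to 0.049, and for mutant against wild type Reck -0.044 to 0.099 and Mmp2 -0.24 to 0.30. Timp3 kept its direction against wild type, from 0.23 to 0.85 in the mutant and from 0.23 to 1.10 in Cre-negative libraries, and was 0.77 in the mutant in limma-voom (adjusted p = 0.327). The adjusted p of Adam10 between mutant and wild type was at least 0.339 in every alternative run.

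The alternatives for the Timp3 term were chosen after the data were seen. It was 0.947 with RLE scaling, 0.939 with no filter, 0.977 in wild type and mutant alone, 0.946 in DESeq2 and 0.959 in limma-voom, past the threshold in each, and 0.89 to 0.98 with a library left out, with the adjusted p then between 0.00612 and 0.144 in edgeR.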
